A study of Mus musculus with 8 samples.

Results

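MHC class II antigen presentation is described here through 8 genes chosen by name, H2-Aa, H2-Ab1, H2-Eb1, H2-DMa, H2-DMb1, H2-DMb2, Cd74 and Ciita, out of 55418 gene symbols in the deposited table; all 8 had enough reads to be tested. Total RNA of distal colon was sequenced from C57BL/6 animals 8 to 10 weeks old. There were 8 libraries, 2 in each of 4 groups, which cross genotype with treatment: wild type (WT) or NAIL-ΔNFκB mice, either untreated or given DSS. NAIL is a long noncoding RNA, and which bases the NAIL-ΔNFκB allele, here ΔNFκB, changes is not in the labels. DSS, dextran sulfate sodium, injures the colon epithelium; it was given at 3% for 4 days, and 4 days of normal water followed. Strain and tissue are shared by all groups. No label states the sex or says that each library is a separate animal, so p-values measure the spread between libraries.

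MHC class II molecules are pairs of an α and a β chain that show peptides from taken-up protein to CD4 T cells. The invariant chain, encoded by Cd74, fills the groove of a new pair and leads it to endosomes, where H2-DM, another αβ pair, exchanges the last piece of the invariant chain for peptide. Ciita encodes the coactivator that switches the genes on together with factors bound to the X and Y boxes of their promoters. B cells, dendritic cells and macrophages make class II constantly, and in the gut epithelium it can be induced by interferon gamma.

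Of the 8 genes, 6 lie on mouse chromosome 17 within the MHC. In mm10 H2-DMa spans 34119541 to 34139101, H2-DMb2 34143307 to 34151555, H2-DMb1 34153072 to 34160230, H2-Ab1 34257689 to 34269419 and H2-Eb1 34305867 to 34316674, all on the plus strand, and H2-Aa 34282744 to 34287823 on the minus strand. Ciita is on chromosome 16 (10480059 to 10528418, plus strand).

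Promoter sequence from RefSeq (GRCm38.p6, the assembly also called mm10) covered 5 of the 8 genes, as 250 bases before and 50 after an annotated start. These stretches were searched on both strands for the Y box core TGATTGG and for an X box of 11 bases, with 1 variable base, whose letters were chosen after reading the sequences. Of 32851 promoters of this length 7.82% held the Y box core, 0.0609% the X box and 7 held both, 3 of these 7 being H2-Eb1, H2-DMb1 and H2-DMb2. The first 3 stretches below are 100 bases long and end at -36 relative to the RefSeq start; for H2-DMb1, where an annotated exon covers the stretch, 30 bases around the X box are given. They are shown because H2-DMb1 and H2-DMb2 share the boxes while their transcripts parted in the libraries. Capitals mark the X and Y box letters.
H2-Eb1 (chr17:34305732-34305831, plus strand): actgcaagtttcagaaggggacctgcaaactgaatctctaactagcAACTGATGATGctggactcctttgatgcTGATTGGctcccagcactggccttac
H2-Aa (chr17:34287859-34287958, minus strand): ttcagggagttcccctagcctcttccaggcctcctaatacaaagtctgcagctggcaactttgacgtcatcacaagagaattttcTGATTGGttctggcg
H2-DMb2 (chr17:34145114-34145213, plus strand): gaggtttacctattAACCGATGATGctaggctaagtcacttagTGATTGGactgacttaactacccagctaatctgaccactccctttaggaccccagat
H2-DMb1 (chr17:34153092-34153121, plus strand): acctagtAACTGATGATGctaggctgattc

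The X and Y box letters were 18 bases apart in H2-DMb1 and in H2-DMb2 and 17 bases apart in H2-Eb1. In the window searched H2-Aa held the Y box core without the X box letters, and the H2-DMa promoters held neither. As the letters were chosen from sequences that hold them, an X box with other letters would be missed. The search therefore does not show that H2-Aa or H2-DMa lacks an X box.

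Libraries held 9229861 to 16935961 counts, and the 8 genes together took 0.0175% to 0.0362% of the counts of untreated libraries and 0.0485% to 0.0936% after DSS. Ribosomal RNA-like genes moved across the same groups, at 0.686% to 1.83% of the counts in untreated and 3.46% to 6.7% in DSS libraries. No class II gene lost a call when antigen receptor, mitochondrial and ribosomal RNA genes were removed by name. The names removed did not cover all of the ribosomal RNA-like genes summed here, so their part was not fully tested. Levels below are CPM, counts scaled to a common library size with TMM factors, and differences are log2 fold changes ± SE with Benjamini-Hochberg adjusted p from edgeR's quasi-likelihood test over 17522 genes, with 0.05 as the threshold. Y-linked transcripts summed to 219 to 240 CPM in both ΔNFκB untreated libraries and WT untreated replicate 2 and to at most 0.209 CPM in the other 5, so that sex goes with DSS in the ΔNFκB libraries. In WT mice sex is partly mixed with DSS, as untreated replicate 2 but no DSS library had such levels. It is also unbalanced between the genotypes without DSS, and so in the difference of the DSS responses. Gm16685, taken from general knowledge as the mouse NAIL gene, had 3 and 20 counts in untreated and 57 and 126 in DSS libraries of WT mice. In ΔNFκB mice it had 3 and 4 counts untreated and 55.1 and 86 after DSS, which does not check the labelled genotype. In whole tissue, fewer cells of a type and less RNA per cell cannot be told apart.

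The first comparison asked how the class II genes of WT mice stood after DSS. Of the 8 genes, 5 rose (H2-Ab1, H2-DMa, H2-DMb1, Cd74 and Ciita), none fell, and the median log2 fold change was 1.36, against 0.00 over all genes tested. Over all genes 17.2% rose and 18.8% fell in this comparison. In 7 of 8 genes both WT DSS libraries lay above both untreated ones, and H2-Aa overlapped; over all genes 36.0% lay above and 35.4% below in this way.

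Among the peptide-binding chains, H2-Ab1, the β chain of the I-A molecule, stood at 21.4 and 30.7 CPM in the WT untreated libraries and at 76.4 and 47.1 CPM after DSS. It rose by 1.24 ± 0.29 (adjusted p 0.0128), or 2.36-fold. Its partner H2-Aa, the I-A α chain, had 50.2 and 82.6 CPM untreated and 124 and 78.7 CPM after DSS. The H2-Aa groups overlapped, at a log2 difference of 0.61 ± 0.30 (adjusted p 0.146). H2-Eb1, the I-E β chain, had 25.7 and 36.7 CPM untreated and 76.2 and 46.4 CPM after DSS. The H2-Eb1 difference was 0.97 ± 0.33 (adjusted p 0.0515) and did not pass the test, although the groups did not overlap. H2-Eb1 lay near the threshold, and its call depended on the settings. It passed by DESeq2 (adjusted p 0.00675), without a count filter (0.00649) and with only the 2 groups compared (0.0455), but not by limma-voom. C57BL/6 mice are known to lack the I-E α chain, and its gene, listed as H2-Ea-ps, had 0 counts in every library, where 3 counts would be 0.201 to 0.309 CPM.

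Cd74, which lies outside the MHC on chromosome 18, had the highest CPM of the 8 genes in WT DSS libraries and stood at 62.7 and 105 CPM in WT untreated and 278 and 190 CPM in WT DSS libraries. It rose 2.78-fold, by 1.47 ± 0.40 (adjusted p 0.0218). The H2-DM chains are less abundant and followed: H2-DMa, the α chain, went from 4.31 and 5.43 to 12.1 and 9.25 CPM, and its rise was 1.12 ± 0.29 (adjusted p 0.0195). H2-DMb1, one of 2 genes for the DM β chain, went from 3.19 and 4.29 to 13.9 and 12 CPM, a rise of 1.78 ± 0.24 (adjusted p 0.00138). H2-DMb1 had the smallest adjusted p of the 8 genes in WT mice. H2-DMb2, the other β chain gene, had 1.28 and 8.92 CPM untreated and 25.5 and 14.1 CPM after DSS. Its untreated libraries differed widely, and the difference of 1.93 ± 0.97 did not pass the test (adjusted p 0.149). Among the other settings it passed only without a count filter (adjusted p 0.0362).

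Ciita, the coactivator gene, stood at 6.39 and 12.7 CPM in WT untreated and 45.5 and 27.5 CPM in WT DSS libraries. It rose 3.78-fold, by 1.92 ± 0.54 (adjusted p 0.0258). In all 8 genes WT DSS replicate 1 stood above replicate 2, and WT untreated replicate 2 above replicate 1. Without WT untreated replicate 1, and likewise without WT DSS replicate 1, H2-DMb1 was the only one of the 8 genes past the test, at a log2 fold change of 1.62 to 2.05 over the 8 libraries left out in turn, and the other 4 called genes had adjusted p between 0.0525 and 0.132.

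**Figure D1:**
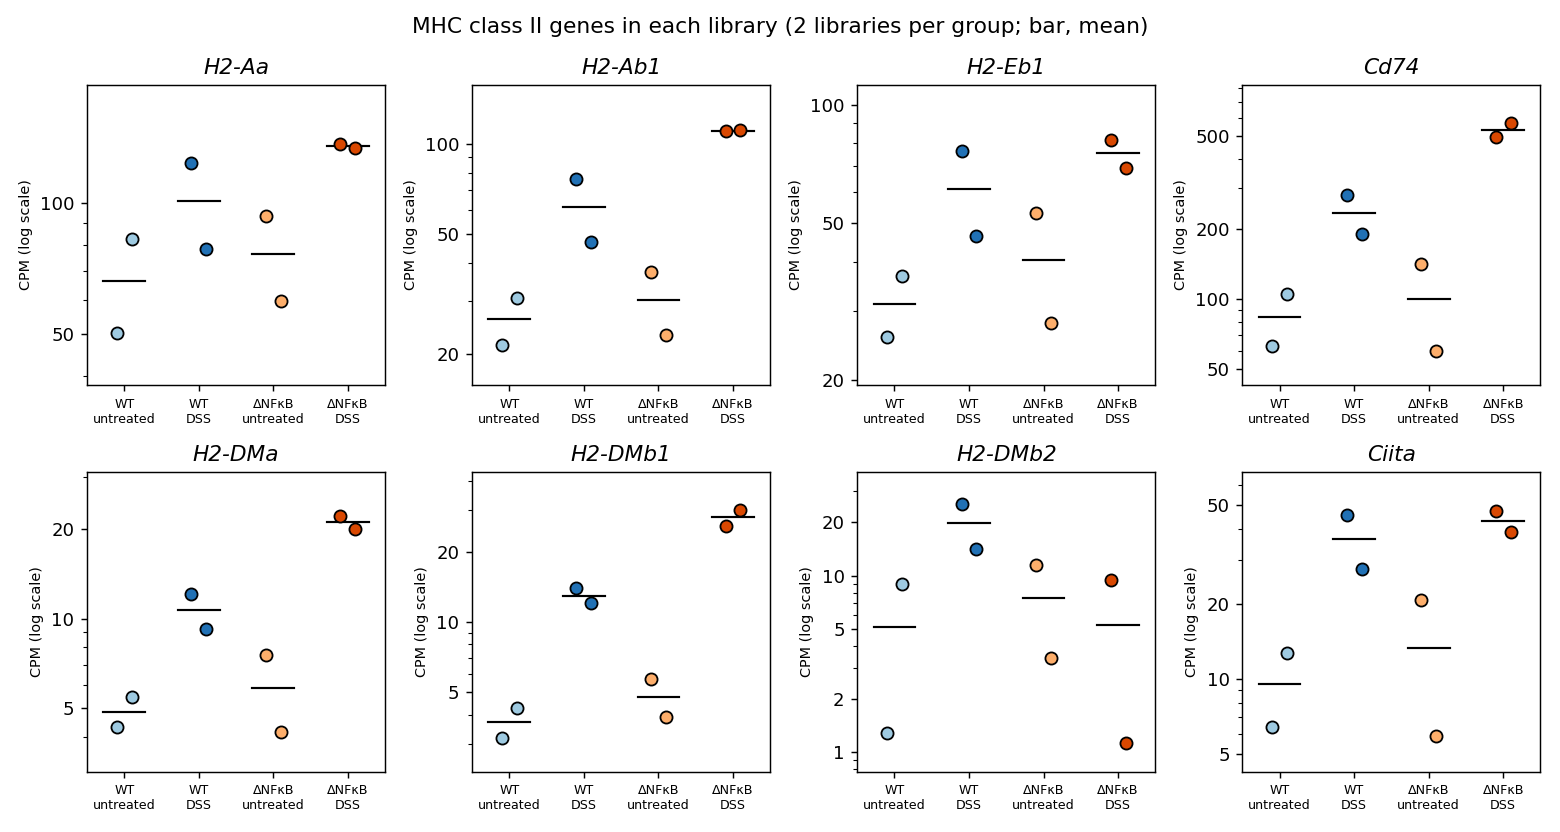
CPM on a log scale (y axis) of each of the 8 class II genes in the 4 groups (x axis); each point is 1 library and the bar is the mean of 2. H2-DMb1 stands at 3.19 to 5.68 CPM in the untreated libraries and at 12 to 30.2 CPM after DSS, whereas H2-DMb2 is lowest in ΔNFκB DSS replicate 2, at 1.13 CPM.

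The second comparison asked the same of ΔNFκB mice, where both untreated libraries had Y-linked transcripts and neither DSS library had a count of them. The same 5 of 8 genes passed the test as higher and none as lower, where 16.2% of all genes rose, 19.2% fell and 35.4% did either. Their median log2 fold change was 1.77, against -0.04 over all genes tested. In 7 of 8 genes both DSS libraries stood above both untreated ones, and H2-DMb2 overlapped; over all genes 33.8% lay above and 37.9% below in this way.

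Cd74 stood at 141 and 59.8 CPM in ΔNFκB untreated and 493 and 569 CPM in ΔNFκB DSS libraries. It rose 5.30-fold, by 2.41 ± 0.41 (adjusted p 0.00302). H2-DMb1 rose from 5.68 and 3.9 to 25.8 and 30.2 CPM, by 2.54 ± 0.24 (adjusted p 0.000288). This was the largest log2 difference among the 8 genes in these mice. H2-DMa rose from 7.57 and 4.15 to 22.1 and 20.1 CPM, by 1.85 ± 0.29 (adjusted p 0.00214). H2-Ab1 rose from 37.4 and 23.2 to 110 and 111 CPM, by 1.87 ± 0.29 (adjusted p 0.00212). For these 4 genes the pair of DSS libraries lay close together and the untreated pair apart, with replicate 1 the higher. With any 1 library left out the log2 rise was 1.94 to 3.17 for Cd74 and 2.32 to 2.86 for H2-DMb1. It was 1.5 to 2.36 for H2-DMa and 1.58 to 2.27 for H2-Ab1. Adding a sex term cost none of these 4 genes its call. That term rests on the WT untreated group alone, the only one with both sexes by Y-linked transcripts, at 1 library each. It therefore cannot separate sex from DSS within ΔNFκB mice.

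H2-Aa had 93.4 and 59.5 CPM in ΔNFκB untreated and 137 and 134 CPM in ΔNFκB DSS libraries, a difference of 0.83 ± 0.30 (adjusted p 0.0637). H2-Eb1 had 53.0 and 27.9 CPM and, after DSS, 81.7 and 69.1 CPM, a difference of 0.90 ± 0.33 (adjusted p 0.066). Neither passed the test, though neither pair of groups overlapped. Their calls depended on the settings. H2-Aa and H2-Eb1 passed by DESeq2 (adjusted p 0.00906 and 0.0107) and without a count filter (0.00854 and 0.00798). Both also passed with only the 2 groups compared (0.0206 and 0.0446), but not by limma-voom. With a sex term H2-Aa was at 1.54 (adjusted p 0.0478). Ciita had 20.7 and 5.86 CPM untreated and 47.1 and 38.9 CPM after DSS. It rose by 1.69 ± 0.53 (adjusted p 0.0385), but did not pass with a sex term (2.68, adjusted p 0.0764), by DESeq2 (adjusted p 0.0631), or without ΔNFκB untreated replicate 2, ΔNFκB DSS replicate 1 or ΔNFκB DSS replicate 2 (adjusted p 0.102, 0.139 and 0.0952). H2-DMb2 had 11.5 and 3.42 CPM untreated and 9.43 and 1.13 CPM after DSS, a difference of -0.50 ± 1.0 (adjusted p 0.731).

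**Figure D2:**
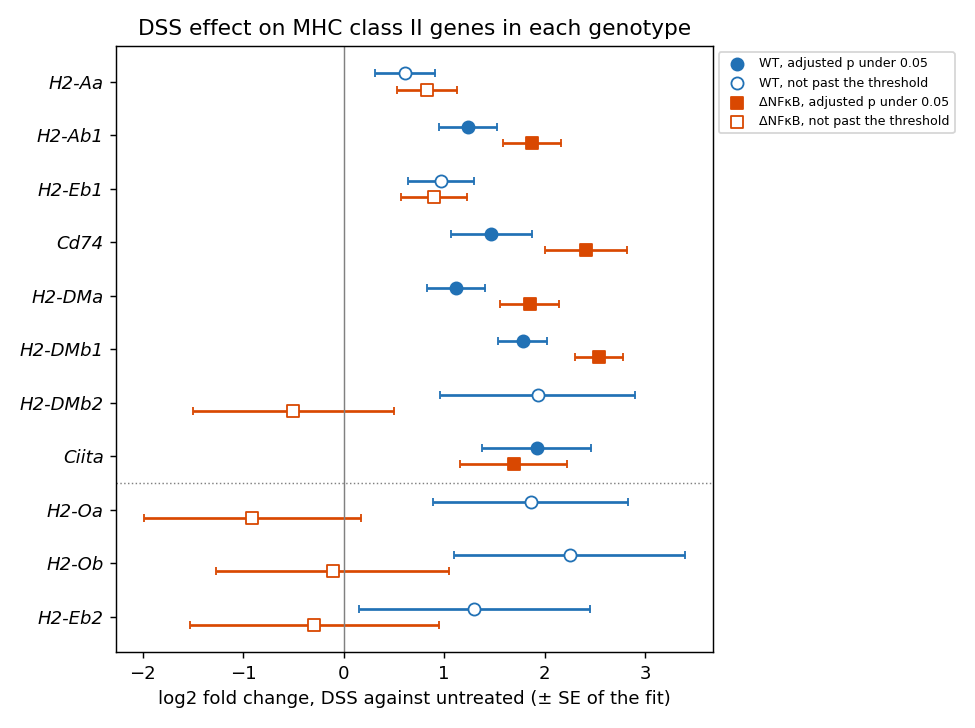
Log2 fold change of DSS against untreated libraries, with the SE of the fit (x axis), in WT (circles) and ΔNFκB mice (squares) for the 8 class II genes and, below the dotted line, H2-Oa, H2-Ob and H2-Eb2; filled symbols have adjusted p under 0.05. The 5 called genes are the same in both genotypes, and H2-DMb2, H2-Oa, H2-Ob and H2-Eb2 have the widest errors.

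The third comparison set ΔNFκB against WT mice without DSS. By edgeR none of the 8 genes passed the test, none had an unadjusted p under 0.05, and DESeq2 and limma-voom called none either; over all genes 0.388% were called, 0.0399% as higher and 0.348% as lower. The log2 differences ran from 0.20 for H2-Aa to 0.53 for H2-DMb2, and the groups of all 8 genes overlapped, where 22.5% of all genes lay wholly above and 22.7% wholly below. The fourth comparison set them against each other after DSS, in libraries that all had at most 0.209 CPM of Y-linked transcripts. Here 2 of 8 genes were higher in ΔNFκB mice, both of them H2-DM chains, and none was lower, where 8.32% of all genes were higher, 11.7% lower and 20.0% either. H2-DMb1 stood at 25.8 and 30.2 CPM in ΔNFκB DSS against 13.9 and 12 CPM in WT DSS libraries, higher by 1.11 ± 0.22 (adjusted p 0.0129). H2-DMa was higher by 0.99 ± 0.28 (adjusted p 0.0409).

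Cd74 was 1.19 ± 0.39 higher on the log2 scale in ΔNFκB DSS libraries and H2-Ab1 0.84 ± 0.28, neither past the test (adjusted p 0.0656 and 0.0676). Cd74 and H2-Ab1 passed without a count filter (adjusted p 0.00585 and 0.0124) and with only the 2 groups compared (0.00847 and 0.0353). H2-Ab1 also passed by DESeq2 (0.0164) and Cd74 with a sex term (0.0492), but neither passed by limma-voom. H2-Aa, H2-Eb1 and Ciita differed by 0.42, 0.30 and 0.24 (adjusted p 0.349, 0.548 and 0.772). H2-DMb2 was at -1.90 ± 0.99 (adjusted p 0.203). In 5 of 8 genes both ΔNFκB DSS libraries stood above both WT DSS libraries, as did 35.5% of all genes, and in H2-DMb2 both stood below, as in 32.6% of all genes. The H2-DMb1 call was lost without WT DSS replicate 2 (adjusted p 0.0962) and without ΔNFκB DSS replicate 2 (adjusted p 0.112), and the H2-DMa call without any 1 of the 4 DSS libraries (adjusted p 0.0813 to 0.217) and with upper quartile factors (adjusted p 0.0576).

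Whether the DSS response itself differed between the genotypes was tested as the difference of both responses, ΔNFκB minus WT. None of the 8 genes passed and none had an unadjusted p under 0.05 by edgeR, and DESeq2 and limma-voom called none; over all genes 17.7% were called, 8.63% as higher and 9.07% as lower. Cd74 had a difference of 0.93 ± 0.55 (adjusted p 0.26). H2-DMb1 was at 0.76 ± 0.33 (adjusted p 0.144), H2-DMa at 0.72 ± 0.41 (adjusted p 0.24) and H2-Ab1 at 0.63 ± 0.40 (adjusted p 0.298). H2-Aa and H2-Eb1 were at 0.22 ± 0.42 and -0.07 ± 0.47 (adjusted p 0.74 and 0.926). Ciita was at -0.23 ± 0.74 and H2-DMb2 at -2.43 ± 1.39 (adjusted p 0.847 and 0.245).

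Per kilobase of exon, the order of the genes within a group could be read. In WT untreated libraries Cd74 stood at 50 ± 18 CPM per kb (SD, n = 2), H2-Aa at 17.5 ± 6.03, H2-Eb1 at 16 ± 3.99 and H2-Ab1 at 10.1 ± 2.57. H2-DMb2 followed at 2.92 ± 3.09, H2-DMb1 at 2.23 ± 0.462, H2-DMa at 1.41 ± 0.230 and Ciita at 1 ± 0.471 CPM per kb. H2-Aa and H2-Eb1 did not differ beyond their spread, nor did H2-DMb2 from its neighbours, nor H2-DMa from Ciita. In ΔNFκB DSS libraries the order among the chains was H2-Ab1 at 43.1 ± 0.180, H2-Eb1 at 38.8 ± 4.55 and H2-Aa at 35.7 ± 0.712 CPM per kb, with Cd74 at 316 ± 32 and H2-DMb1 at 16.7 ± 1.84. H2-Ab1 thus had the lowest mean of the 3 chains in WT untreated libraries. In ΔNFκB DSS libraries it did not differ from H2-Eb1 beyond the spread, at 43 against 42 CPM per kb in replicate 1. The order depends on the exon lengths used. By CPM, H2-Aa had the highest mean of the 3 in ΔNFκB DSS libraries, at 135, against 111 for H2-Ab1 and 75.4 for H2-Eb1.

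Ratios of counts within a library do not depend on how libraries were scaled; the ratios were chosen after the values were seen and are a description. For each H2-Aa count there were 0.426 and 0.372 H2-Ab1 counts in the WT untreated libraries and 0.400 and 0.390 in the ΔNFκB untreated libraries. After DSS there were 0.616 and 0.598 in WT and 0.804 and 0.832 in ΔNFκB libraries. The 4 untreated libraries lay together, and the DSS libraries lay above them and apart by genotype. The ratio of Cd74 to H2-Aa was 1.25 and 1.27 in WT untreated, 1.51 and 1.01 in ΔNFκB untreated, 2.24 and 2.41 in WT DSS and 3.59 and 4.26 in ΔNFκB DSS libraries, in the same order of groups. H2-Eb1 went the other way against H2-Ab1, at 1.19 to 1.42 in untreated libraries, 0.986 and 0.997 in WT DSS and 0.622 and 0.739 in ΔNFκB DSS libraries. The ratio of H2-DMa to H2-Ab1 stayed between 0.158 and 0.203 in all 8 libraries, and its groups overlapped. The ratio of Ciita to H2-Ab1 was 0.595 and 0.584 in WT DSS libraries, above the other 6, which lay between 0.253 and 0.555.

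**Figure D3:**
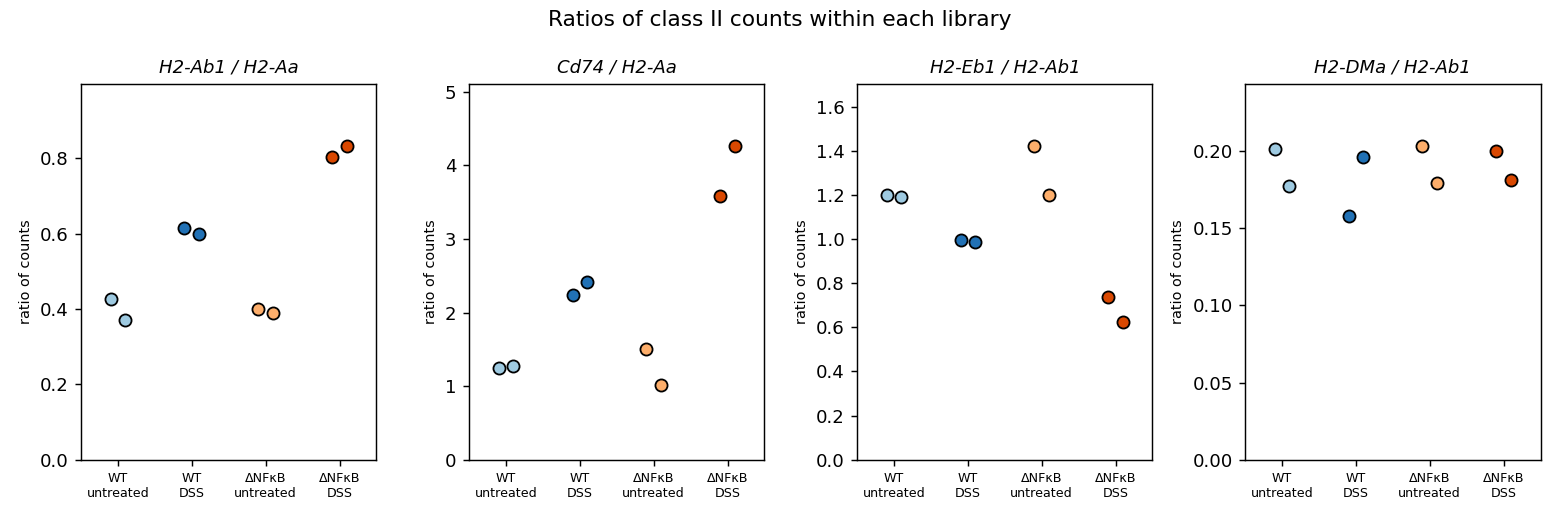
Ratio of counts (y axis, from 0) for 4 pairs of class II genes in the 4 groups (x axis); each point is 1 library. H2-Ab1 and Cd74 per H2-Aa are higher in all DSS than in all untreated libraries and highest in ΔNFκB DSS, H2-Eb1 per H2-Ab1 is lowest there, and H2-DMa per H2-Ab1 keeps to 0.158 to 0.203.

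The DM β chain genes parted from each other. H2-DMb1 made up 71.4% (95% Wilson interval 58.5% to 81.6%) and 32.5% (26.3% to 39.3%) of the counts of both genes in the WT untreated libraries. In WT DSS libraries the share was 35.3% (30.8% to 40.0%) and 46.0% (40.3% to 51.8%), and in ΔNFκB untreated libraries 33.0% (27.1% to 39.5%) and 53.3% (43.1% to 63.3%). In ΔNFκB DSS libraries it was 73.3% (68.3% to 77.7%) and 96.4% (93.6% to 98.0%). The ΔNFκB DSS libraries therefore had the highest shares, but WT untreated replicate 1 lay beside the lower of them. Of 150-base stretches, the read length, 4.71% in H2-DMb1 transcripts also occur in H2-DMb2 transcripts, and the counts of both genes were fractional in 5 and 7 of 8 libraries, so part of each count is uncertain; intervals cover counting error only.

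H2-DMb2 moved with B cell markers and with H2-Ob, H2-Oa and H2-Eb2, class II genes that are not among the 8. H2-Ob, the β chain of H2-DO, which restrains H2-DM and is made mainly in B cells, had 1.28 and 10.3 CPM untreated and 35.1 and 21.1 CPM after DSS in WT mice. In ΔNFκB mice H2-Ob had 14.1 and 4.15 CPM untreated and 16.4 and 0.515 CPM after DSS. H2-Oa, its α chain, had 21 and 0 counts in the ΔNFκB DSS libraries, and H2-Eb2, a further class II β chain gene, had 51 and 3. Of these 3 genes, none passed the test in any comparison with the main settings. Without a count filter 1 of them was called higher after DSS in WT mice. The 8 B cell markers (such as Cd79a and Ms4a1) summed to 4.47 and 103 CPM untreated and 304 and 126 CPM after DSS in WT mice. In ΔNFκB mice they summed to 130 and 34.2 CPM untreated and 142 and 2.47 CPM after DSS, and none of them passed the test in any comparison either. The highest H2-DMb2 level, in WT DSS replicate 1, and the lowest, in ΔNFκB DSS replicate 2, were in the libraries with the highest and the lowest sum of B cell markers.

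**Figure D4:**
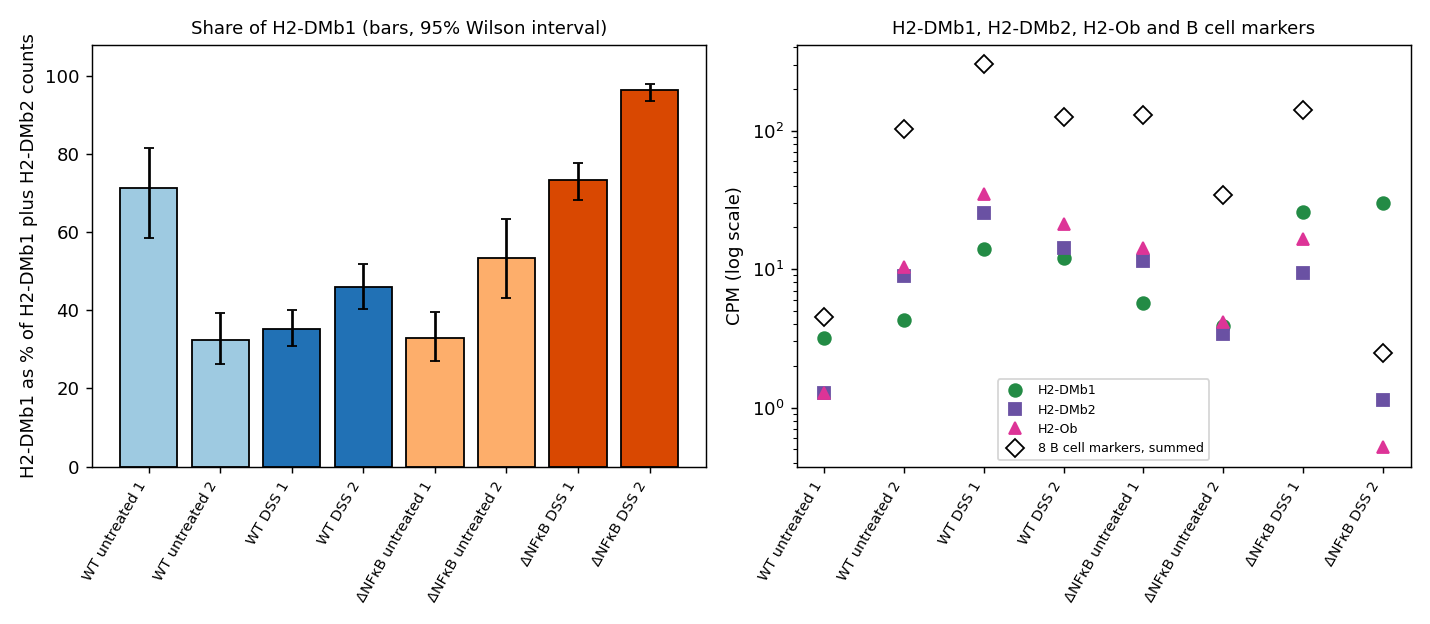
Left, H2-DMb1 as a percentage of H2-DMb1 plus H2-DMb2 counts in each library, with 95% Wilson intervals; right, CPM on a log scale of H2-DMb1, H2-DMb2, H2-Ob and the summed 8 B cell markers in the same libraries. ΔNFκB DSS replicate 2 has the highest share, 96.4%, and the lowest B cell marker sum, 2.47 CPM.

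The same library, ΔNFκB DSS replicate 2, had the highest sum of the 8 class II genes, 973 CPM, beside 927 CPM in replicate 1, 425 and 651 CPM in WT DSS and 175 to 370 CPM in untreated libraries. In the other 3 groups the replicate with the higher class II sum also had the higher B cell marker sum, and in ΔNFκB DSS the replicate with slightly more class II had the lower one. Macrophage markers (9 genes, such as Csf1r and C1qa) summed to 109 to 157 CPM untreated and 141 to 182 CPM after DSS in WT mice, and to 141 to 145 and 114 to 121 CPM in ΔNFκB mice. Dendritic cell markers (8 genes, such as Itgax and Flt3) went from 10.8 to 14.8 CPM to 23.8 to 29.6 CPM in WT mice and from 11.9 to 26.1 CPM to 23.2 to 33.6 CPM in ΔNFκB mice. Epithelial markers (8 genes, such as Epcam and Krt8) summed to 9315 to 11806 CPM untreated and 6631 to 7032 CPM after DSS in WT mice, and to 8539 to 9679 and 9352 to 9816 CPM in ΔNFκB mice. Among epithelial markers 5 of 8 were higher in ΔNFκB than in WT mice after DSS and none was lower, whereas 3 of 4 endothelial and 5 of 5 neutrophil markers were lower and none was higher, beside 8.32% of all genes higher and 11.7% lower. T cell markers (7 genes) summed to 4.71 to 7.58 and 20.9 to 25.2 CPM in WT mice and to 3.58 to 28.8 and 12.6 to 17.3 CPM in ΔNFκB mice, untreated and after DSS. Single markers at 0 were 2 T cell genes in a ΔNFκB untreated library and 2 neutrophil genes in WT untreated replicate 1. In a ΔNFκB DSS library each, 1 B cell and 1 dendritic cell gene were also at 0. The part of these cells in the class II levels was not tested.

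Genes whose products work around class II were counted from fixed lists. Of the 7 genes for factors that act with Ciita on the promoters (RFX, NF-Y and CREB), none rose with DSS in either genotype; Rfxank and Creb1 fell in WT mice, by 0.94 and 0.44 on the log2 scale (adjusted p 0.0047 and 0.0243), and Rfxank in ΔNFκB mice (-0.52, adjusted p 0.045). Rfx5, the DNA-binding subunit of RFX, was at 0.30 and 0.26 (adjusted p 0.312 and 0.387). Ciita was called higher and none of these 7 genes was. Over all genes 17.2% rose and 18.8% fell in WT mice, and 16.2% and 19.2% in ΔNFκB mice. With only 7 genes, the absence of a rise is not set apart from these shares. The Creb1 call was lost without WT untreated replicate 2, WT DSS replicate 1, WT DSS replicate 2 or ΔNFκB DSS replicate 2, with a sex term and with only the 2 groups compared (adjusted p 0.0506 to 0.151). In ΔNFκB mice the Rfxank call was lost under 10 of 18 settings (adjusted p 0.0506 to 0.264), among them the sex term, the replicate block (0.0586) and leaving out WT untreated replicate 1 or 2, ΔNFκB untreated replicate 2 or ΔNFκB DSS replicate 1 or 2.

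Of 10 genes for endosomal proteases and turnover, 2 rose and 3 fell with DSS in WT mice, and 1 rose and 3 fell in ΔNFκB mice, beside 17.2% and 18.8% of all genes in WT and 16.2% and 19.2% in ΔNFκB mice. With upper quartile factors 6 fell in ΔNFκB mice, and with a sex term 1. Ctss, the protease cathepsin S that trims the invariant chain, stood at 176 and 251 CPM in WT untreated and 112 and 126 CPM in WT DSS libraries and fell by 0.84 on the log2 scale (adjusted p 0.00816). In ΔNFκB mice Ctss was at -0.45 ± 0.18 (adjusted p 0.0799). March1, a ubiquitin ligase that removes class II from the cell surface, rose in WT mice by 1.82 ± 0.47 (adjusted p 0.0183) and Lgmn, an endosomal protease, by 1.14 ± 0.21 (adjusted p 0.00496). Ctsl and Ctsd, cathepsins L and D, fell in ΔNFκB mice by 1.13 and 0.72 on the log2 scale (adjusted p 0.00158 and 0.00277), and Ctsh fell in both genotypes, by 0.47 in WT and 1.18 in ΔNFκB mice (adjusted p 0.0165 and 0.000391). Ifi30, a thiol reductase of endosomes, fell by 0.53 in WT mice (adjusted p 0.016), and Sppl2a, which cleaves the last fragment of the invariant chain, rose by 0.61 ± 0.13 in ΔNFκB mice (adjusted p 0.0089). After DSS 4 of the 10 genes were lower in ΔNFκB than in WT mice and 0 higher, beside 11.7% and 8.32% of all genes. These were Ctsl (-1.09, adjusted p 0.00522), Ctsd (-0.40, 0.0467), Ctsh (-0.59, 0.0142) and Lgmn (-0.93, 0.0203). Each of these genotype calls was lost under some settings, that of Ctsd under 9. With a sex term the DSS calls of Ctsl and Ctsd in ΔNFκB mice and of Ctsh and Ifi30 in WT mice were lost (adjusted p 0.0544, 0.0599, 0.0674 and 0.0523). The DSS call of Ctsh in WT mice was also lost by DESeq2 (adjusted p 0.0507). Of the WT calls, those of Ctss, Ctsh and March1 were lost without DSS replicate 1, those of Ctsh, Ifi30 and March1 without DSS replicate 2, those of Ctsh and Ifi30 without untreated replicate 2 and that of March1 without untreated replicate 1 (adjusted p 0.0592 to 0.107), and Sppl2a in ΔNFκB mice was lost without DSS replicate 2 (0.0621).

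Of 6 tested genes of interferon gamma signalling, 1 rose and none fell with DSS in WT mice, and 3 rose and 1 fell in ΔNFκB mice. Over all genes 17.2% rose and 18.8% fell in WT mice, and 16.2% rose and 19.2% fell in ΔNFκB mice. Socs1, a feedback inhibitor of the pathway, had 0.798 and 1.34 CPM untreated and 14.5 and 22.4 CPM after DSS in WT mice, and 1.5 and 2.03 CPM untreated and 32.6 and 46.4 CPM after DSS in ΔNFκB mice. It rose by 4.08 ± 0.36 in WT and 4.48 ± 0.34 in ΔNFκB mice (adjusted p 0.000226 and 0.000153). Irf1, a transcription factor that acts on a Ciita promoter, rose in ΔNFκB mice by 1.29 ± 0.28 (adjusted p 0.00867) and was at 0.14 ± 0.27 in WT mice (adjusted p 0.711); the difference of both responses was 1.15 ± 0.39 (adjusted p 0.0746). The Irf1 call was lost without ΔNFκB untreated replicate 1 or ΔNFκB DSS replicate 2 (adjusted p 0.0538 and 0.0622). Jak2 rose by 0.34 ± 0.11 and Ifngr2 fell by 0.59 on the log2 scale in ΔNFκB mice (adjusted p 0.042 and 0.0135). The Jak2 call was lost under 10 of 18 settings, 6 of them a library left out, and that of Ifngr2 with a sex term and without ΔNFκB untreated replicate 2 or ΔNFκB DSS replicate 1. Socs1 was higher in ΔNFκB than in WT mice after DSS, by 1.10 ± 0.27 (adjusted p 0.0277), and this call was lost without WT DSS replicate 1, WT DSS replicate 2 or ΔNFκB DSS replicate 2 (adjusted p 0.128, 0.0506 and 0.223). Ifng itself had too few reads to be tested: 0 counts in all 4 untreated libraries, 2 and 8 in WT DSS and 6 and 17 in ΔNFκB DSS libraries.

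Of 8 genes for costimulation and the T cell side, 6 rose with DSS in WT mice (Cd40, Cd80, Cd86, Icosl, Lag3 and Ctla4). In ΔNFκB mice 1 rose, Ctla4, and none fell in either genotype. The shares over all genes were 17.2% higher and 18.8% lower in WT mice and 16.2% and 19.2% in ΔNFκB mice. Cd80, a ligand of the T cell receptors CD28 and CTLA-4, had 1.04 and 0.939 CPM untreated and 7.92 and 5.59 CPM after DSS in WT mice, and 1.5 and 1.14 CPM untreated and 1.54 and 2.06 CPM after DSS in ΔNFκB mice. The WT DSS libraries stood apart from the other 6. Cd80 rose by 2.76 ± 0.34 in WT mice (adjusted p 0.00092), was lower in ΔNFκB than in WT mice after DSS (-1.90 ± 0.33, adjusted p 0.00783), and its responses differed by -2.32 ± 0.50 (adjusted p 0.0203). Cd86, a related ligand, rose by 1.34 ± 0.40 in WT mice (adjusted p 0.0315) and was at 0.56 ± 0.41 in ΔNFκB mice (adjusted p 0.317); its difference of responses was not past the test (-0.78 ± 0.57, adjusted p 0.357). Of the WT calls, those of Cd40, Cd86, Icosl and Lag3 were lost without WT DSS replicate 1 (adjusted p 0.0563, 0.243, 0.119 and 0.0861). Those of Cd86 and Icosl were also lost without WT untreated replicate 1, those of Icosl and Lag3 without replicate 2, that of Lag3 without WT DSS replicate 2 and that of Cd86 without ΔNFκB DSS replicate 1. Lag3 was lost by DESeq2 (adjusted p 0.0633) and, like Icosl, with a sex term (adjusted p 0.0996 and 0.0718), and Cd86 with only the 2 groups compared (adjusted p 0.0626). Ctla4 in ΔNFκB mice was lost without untreated replicate 2 or either DSS library of these mice and with a sex term (adjusted p 0.0547 to 0.172), and the lower Cd80 after DSS without ΔNFκB DSS replicate 1 or 2 (adjusted p 0.0537 each).

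**Figure D5:**
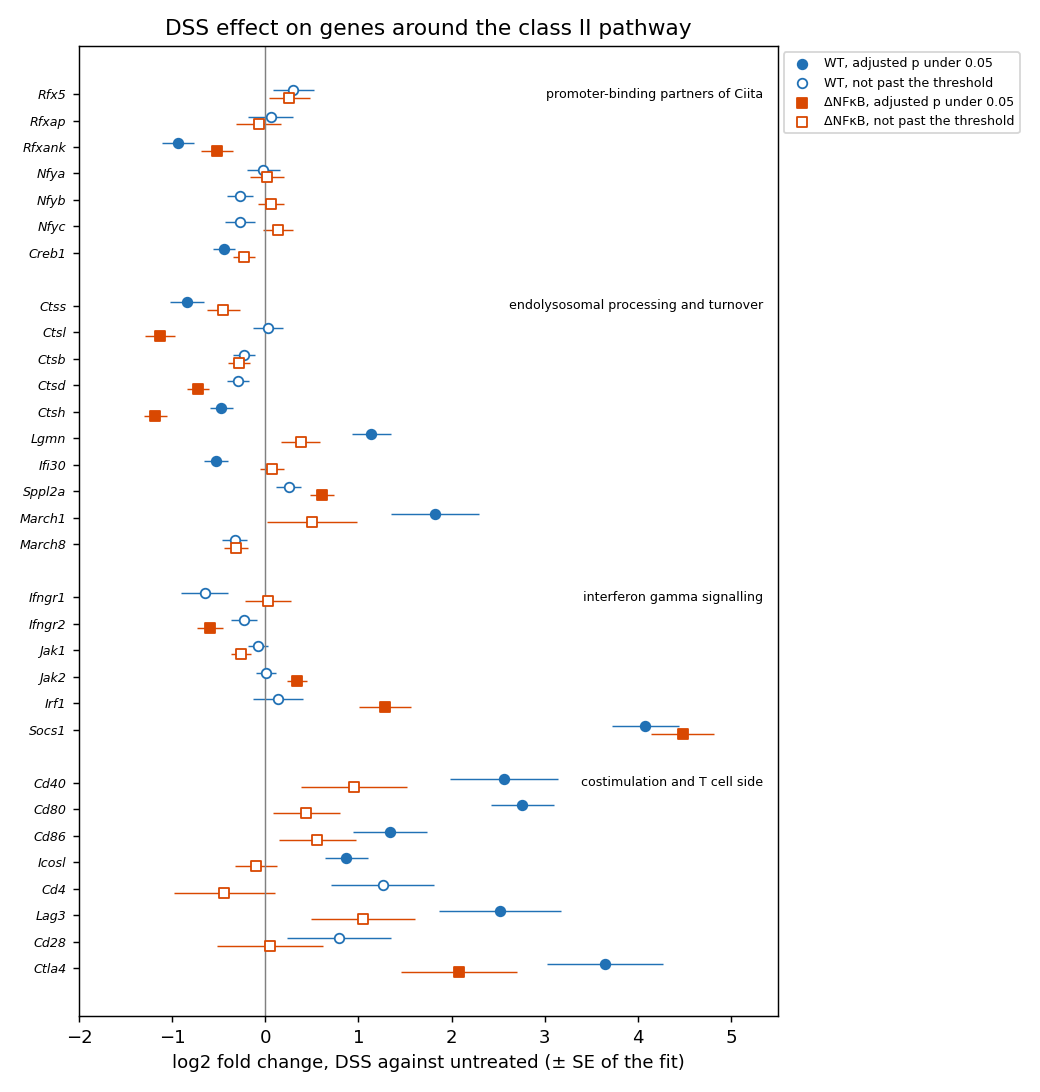
Log2 fold change of DSS against untreated libraries, with the SE of the fit (x axis), in WT (circles) and ΔNFκB mice (squares) for genes around the class II pathway, grouped by list; filled symbols have adjusted p under 0.05. Socs1 is higher after DSS in both genotypes, the partners of Ciita lie near 0 or below, and Cd80 stands apart between the genotypes.

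Likeness was described as Pearson's r of log2 CPM over the 8 libraries, which share 4 groups and a scaling, so no p is given. Among the 8 class II genes H2-Ab1, H2-DMa, H2-DMb1 and Cd74 were the most alike, at 0.98 to 0.99 for each pair. H2-DMb2 was at 0.12 to 0.46 with the other 7 genes, lowest with H2-DMb1. Of 12354 other genes, those most like the mean of H2-Aa, H2-Ab1, H2-Eb1 and Cd74 were Preb, Tmem229b, Abhd17a, Senp1, Hinfp and Ccdc85c (0.969 to 0.988), and those most like Ciita were Zdhhc18, Ifi213, Ms4a4c, Runx3, Baz1a and Abhd17a (0.970 to 0.990). For H2-DMb2, looked up after its values were seen, they were Hvcn1, Siglecg, Cd79a, Cd22, H2-Ob and H2-Eb2 (0.986 to 0.990).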

How the data were processed

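The authors deposited expected counts per gene without normalization, by gene symbol and by Ensembl identifier; of the nonzero values 18.8% are fractional, without any tolerance. Per the submitters' processing notes HISAT2 2.1, SAMtools 1.8, featureCounts, Subread 1.6.2 and mm10 were used. How multiply matching reads and strand were handled, and from which annotation, is not given in the sources used here. Both tables hold the same values (0 differ), so the symbol table was used; 115 symbols on several lines were summed, and counts were rounded.

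The 8 members and all lists were chosen with earlier results of these data known. Genes passing filterByExpr were fitted with edgeR 4.0.16 (R 4.3.3) as 4 group means with TMM factors (0.881 to 1.15) and two-sided quasi-likelihood F tests, with 4 residual degrees of freedom. SE was taken as the size of the log2 fold change over the root of F. An exact permutation of 2 against 2 libraries cannot go below p = 0.333, so none was run. On simulated data with 200 changed genes for the DSS effect in WT mice (17049 and 17008 genes), 44% were recovered at 2-fold and 81% at 4-fold. False calls numbered 15 and 10. The data called 6315 genes in this comparison, far more than were changed in the simulation, so these recoveries do not carry over to the data.

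The text names all members, fixed-list genes past the threshold or described by their values, and by rule the 6 genes most like 2 patterns, with mean log2 CPM above 1 (prior count 2) and without predicted genes or antigen receptor segments; 1 gene of the interferon gamma list is not reported here. Alternatives, 18 in all, were upper quartile or RLE factors, DESeq2 1.42.0, limma-voom (limma 3.58.1), all genes kept, a CPM of 1 in 2 libraries as the filter, removal of antigen receptor, ribosomal RNA and mitochondrial genes, the replicate number as a block, a term for sex (male above 5 CPM of Y-linked transcripts), only the 2 groups compared, and each library left out in turn. Positions and exon lengths came from GENCODE M21 on GRCm38, where all 8 members were found. Exons of other genes covered 10.4% of the exon bases of H2-DMa, 3.45% for Ciita, 0.715% for Cd74 and 0 for the other 5. Endothelial markers summed to 43.3 to 61.3 CPM untreated and 77.3 to 99.3 after DSS in WT mice and to 39.3 to 63.9 and 17 to 24.9 in ΔNFκB mice. Smooth muscle markers were at 2646 to 5187, 782 to 971, 4221 to 4389 and 679 to 706 CPM in that order, and neutrophil markers at 2.08 to 2.21, 233 to 326, 1.46 to 8.36 and 66.8 to 68.6 CPM.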

Additional observations from a re-analysis of the deposited data

Results flagged for a closer look

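For 3 genes of the pathway lists, and for none of the 8 members, the test of the difference itself called unlike DSS responses in ΔNFκB and WT mice. By edgeR's quasi-likelihood test the difference of the responses (ΔNFκB minus WT) was -1.16 ± 0.23 for Ctsl (adjusted p 0.0161), -0.71 ± 0.17 for Ctsh (adjusted p 0.0261) and -2.32 ± 0.50 for Cd80 (adjusted p 0.0203). Ctsl had 96 and 116 CPM untreated and 94.7 and 123 CPM after DSS in WT mice, and 109 and 114 CPM untreated and 55.9 and 46.3 CPM after DSS in ΔNFκB mice. With 1 library left out the values ran from -1.32 to -0.95 for Ctsl, -0.82 to -0.63 for Ctsh and -2.54 to -2.03 for Cd80. The call of Ctsl was lost without 3 of the 8 libraries (WT DSS replicate 2, ΔNFκB untreated replicate 1 and ΔNFκB DSS replicate 2), that of Ctsh without 5 (both DSS libraries of each genotype and ΔNFκB untreated replicate 1) and by DESeq2, and that of Cd80 without 5 (WT untreated replicate 2, WT DSS replicate 1, ΔNFκB untreated replicate 1 and both ΔNFκB DSS libraries), at adjusted p of 0.0518 to 0.0921.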

How the results depend on the processing

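The count of members that rose with DSS in WT mice was 5 and ran from 1 to 6 with 1 library left out. In ΔNFκB mice it was 5 and ran from 4 to 7 with 1 library left out. The count higher in ΔNFκB mice after DSS was 2 and became 1 with upper quartile factors, 4 without a count filter, 4 with only the 2 groups compared, and 0 to 3 with 1 library left out. Of 712 recomputed member values under 18 settings 628 kept their direction and side of the threshold, 20 lost and 29 gained a call, and 35 turned in sign; every value that turned was outside the threshold. With a sex term the value of H2-DMb2 in ΔNFκB mice was 2.29, the genotype difference without DSS was -0.11 for H2-Aa, -0.02 for H2-Ab1, -0.25 for H2-DMb2 and -0.07 for Cd74, and the difference of responses was 0.16 for H2-Eb1 and 0.17 for Ciita. With limma-voom the last 2 were 0.02 and 0.01. With 1 library left out H2-DMb2 ran from -2.70 to 0.65 in ΔNFκB mice. The genotype differences without DSS ran from -0.19 to 0.58 (H2-Aa), -0.20 to 0.49 (H2-Ab1), -0.19 to 0.74 (H2-Eb1), -0.26 to 0.60 (H2-DMa), -0.63 to 2.51 (H2-DMb2), -0.52 to 0.71 (Cd74) and -0.74 to 1.08 (Ciita). Those after DSS ran from -0.01 to 0.71 (H2-Eb1) and -0.07 to 0.66 (Ciita), and the differences of responses from -0.20 to 0.60 (H2-Aa), -0.47 to 0.45 (H2-Eb1) and -0.88 to 0.95 (Ciita). The cause was not tested.

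Replicate numbers are shared by the groups, but no label says that they pair libraries, and the deviations of same-numbered libraries correlated at -0.126 to 0.244. With the replicate block 5 members rose in WT mice, 6 in ΔNFκB mice, where H2-Eb1 passed the test at 0.93 (adjusted p 0.0468), and the difference of responses was 0.03 for H2-Eb1. Counts over all genes ran with the settings from 3298 to 6476 for DSS in WT mice (6315), 3343 to 6548 in ΔNFκB mice (6199), 0 to 330 for genotype without DSS (68), 484 to 4094 after DSS (3499) and 489 to 3772 for the difference of responses (3102). Depth limits H2-DMb2, H2-Ob, H2-Oa and H2-Eb2, at 10.7, 5, 0 and 3 counts in ΔNFκB DSS replicate 2.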

Other observations

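Within the marker lists single genes went separate ways. Cd209a, a lectin of a dendritic cell subset, had 20 and 13 counts untreated and 1 and 1 after DSS in WT mice, and 12 and 20 counts untreated and 0 and 2 after DSS in ΔNFκB mice. It fell in both genotypes (log2 fold change -3.56 ± 0.87 and -3.51 ± 0.88, adjusted p 0.0152 and 0.016 by edgeR). Fcgr1, the high-affinity immunoglobulin receptor of macrophages, rose in both, by 1.95 ± 0.41 and 2.49 ± 0.46 (adjusted p 0.00862 and 0.00445). Itgax, the integrin CD11c, rose in ΔNFκB mice by 1.53 ± 0.36 (adjusted p 0.0132) and was at 0.95 ± 0.37 in WT mice (adjusted p 0.0782). Flt3, a growth factor receptor of dendritic cells, rose in WT mice by 1.87 ± 0.61 (adjusted p 0.0427) and was at 0.25 ± 0.61 in ΔNFκB mice (adjusted p 0.784). Mertk, a receptor of resident macrophages, fell by 0.89 on the log2 scale in ΔNFκB mice (adjusted p 0.00416) and was at -0.29 in WT mice (adjusted p 0.185). None of these 5 passed the test of the difference of responses.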
